A study of Mus musculus with 8 samples.

Results

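The arrays of day 4, 1 from diabetogenic and 1 from protected islets, are 2 of the 8 arrays measured. They were chosen by their labels, not by any value. Each gene was represented by 1 probe set, the set of short oligonucleotides that measures a transcript, taken as the one with the highest mean over the 8 arrays. Of the 18194 genes with a probe set of 1 symbol, 3846 stood at an intensity of 10 or more on either day 4 array and are called kept genes. Differences are diabetogenic minus protected on the scale log2(intensity + 2), which understates the change of dim genes, and a gene is called higher or lower when it differed by 2-fold or more. Each arm has 1 array on this day, so no difference below has a test, an error or a replicate check.

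Both arms used NOD.Scid mice, in which the NOD background is prone to autoimmune diabetes and the Scid mutation leaves the host without mature lymphocytes. All received CD4+ BDC2.5 transgenic T cells on day 0, whose receptor recognises a beta cell antigen and which are diabetogenic, and were killed 4 days later. The protected mice were also given 2 injections of antibody against interferon-γ (IFN-γ), on day −1 and day 2, and per the submitters' design text did not become diabetic. The labels name no control antibody in the diabetogenic arm, so neutralisation cannot be told apart from the antibody injections. Islets were cut by laser from methanol-fixed frozen sections, and the RNA of 5 mice was pooled, amplified and hybridised to each array. The comparison asks how islets under T cell attack differ when IFN-γ is neutralised, on a day between the early infiltrate of day 3 and the later lesion of day 8.

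IFN-γ, made by T helper 1 cells, signals through JAK kinases and induces guanylate-binding proteins, immunity-related GTPases, the chemokines that attract CXCR3-bearing T cells, and antigen presentation. Interleukin-4 and interleukin-13 act instead through STAT6 and induce in macrophages a program called alternative activation, with arginase, chitinase-like and resistin-like proteins and the chemokines Ccl17 and Ccl24. IFN-γ is known to restrain that program. Islets lie within exocrine tissue, whose acinar cells secrete digestive enzymes and, when injured, Reg lectins.

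The diabetogenic array had fewer bright genes than any other array of the series. Genes at 100 or more numbered 25 on it and 175 on the protected array, against 184 to 247 on the other 6. The 99th percentile of intensity was 25.6 against 67.0, while the array medians were alike at 3.46 and 3.52. The 18 probe sets of spiked hybridisation controls, transcripts added to the sample at hybridisation, had medians of 1559 and 1624. The 3' probe set over the 5' one, a ratio that is high when RNA or its copies are short, was 2.25 and 9.24 for Actb and 2.78 and 10.5 for Gapdh. The spiked controls stood near background on the untreated and both day 3 arrays, with medians of 1.48 to 2.29, so levels set across that split were measured under a difference in these controls. Insulin marks both day 4 arrays as islet tissue: 6 beta cell markers summed to 3809 and 6698, most of it Ins2 (3700.2 and 5532), against 5192 in untreated islets. The sum hides the dimmer markers. Pdx1, Nkx6-1, Slc2a2 and G6pc2 stood between 1.16 and 8.33 on the day 4 arrays, against 5.91 to 166 in untreated islets.

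**Figure D1:**
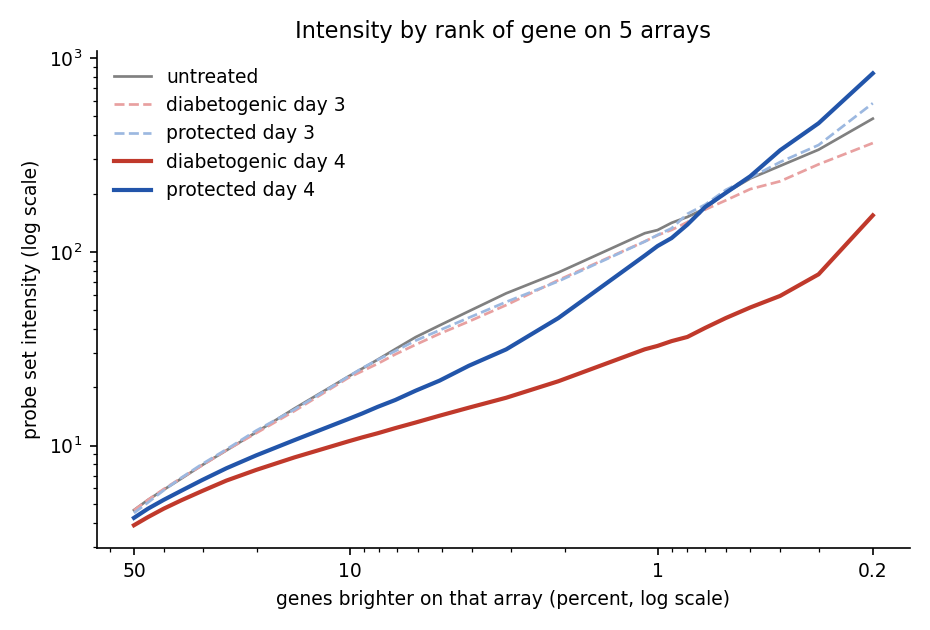
Intensity of genes by rank on 5 arrays, both axes on log scales. The horizontal axis gives the percent of genes brighter on that array and the vertical axis the probe set intensity. The diabetogenic day 4 curve lies under the others over the brightest part of the range, with 25 genes at 100 or more, and the protected day 4 curve crosses from below the untreated and day 3 curves to above them.

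Among the 3846 kept genes, 431 (11.2%) were higher and 1488 (38.7%) lower in diabetogenic islets, and the median difference was −0.68 with an SD over genes of 1.23. These shares are the background for the list counts below. Of the kept genes 1801 reached 10 on the protected array alone and 823 on the diabetogenic array alone, which fixed the sign of their difference. At 4-fold or more the counts were 81 (2.11%) and 436 (11.3%). The balance of directions depended on the scale. Lower genes made up 77.5% of those past 2-fold as deposited, 57.2% after quantile normalization and 43.4% when the median difference of kept genes was set to 0. A filter that does not use the day 4 arrays, a mean of 10 or more over the other 6, kept 3964 genes, of which 75 (1.89%) were higher and 1494 (37.7%) lower. Of the 1222 genes at the minimum on both day 4 arrays 32 (2.62%) were higher and 397 (32.5%) lower, and with no minimum 1125 (6.18%) of the 18194 genes were higher and 2476 (13.6%) lower.

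The difference changed with level. In genes with a mean of 3.5 to 4 on the log2 scale the median was −0.36, with 81 higher and 294 lower of 1327. From 6 to 8 it was −2.57, with 2 higher and 99 lower of 113. Of the 24 genes above 8, 5 were higher and 15 lower. Bright genes were thus mostly lower in diabetogenic islets. For that reason list medians and some single genes are also given against genes of like level, meaning minus the median of the gene itself and the 400 kept genes nearest in mean level. That median was −1.77 for the brightest genes, which all share 1 block of neighbours that reaches down to dimmer genes. The median was −2.57 in genes from 6 to 8 and −2.15 above 8, so a bright gene near those values lies below the block but not below genes of its own narrower range. On this measure 780 kept genes (20.3%) lay 1 log2 unit or more above and 477 (12.4%) that far below, and lower genes were 37.9% of them. The minimum shapes these counts at the dim end. The 1402 kept genes with a mean up to 3.5 each reached 10 on 1 array alone, and their quartiles were −1.43 and 0.84. Most passed through the protected array and set the median there, so those kept through the diabetogenic array lie above it by the filter. The 200 genes just inside the minimum of 10 had a median difference of −0.43 and the 200 just outside −0.32.

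**Figure D2:**
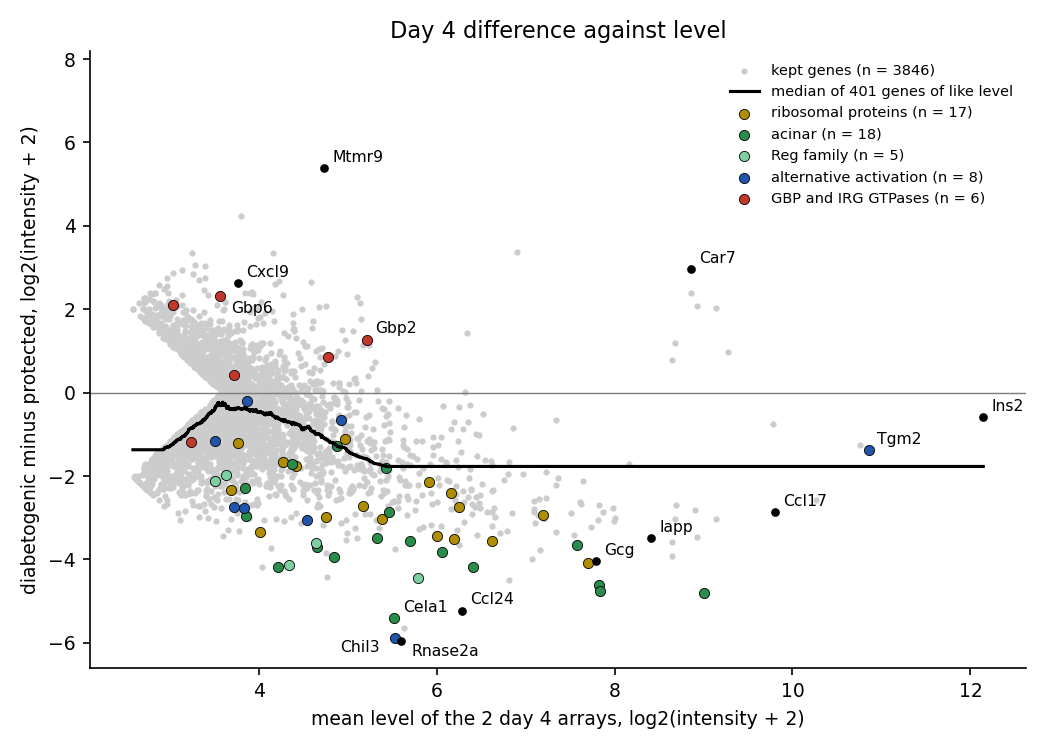
Difference between the day 4 arrays against mean level, both on the log2(intensity + 2) scale. Each grey point is a kept gene, coloured points are list members and the black line is the median of genes of like level, which goes down to −1.77 and is flat for the brightest genes. The wedge without points at the left is made by the minimum of 10. Acinar and Reg genes lie mostly below the line, ribosomal protein genes mostly below it, and 5 of 6 GTPases above it.

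Several genes of the IFN-γ response were higher in diabetogenic islets. The guanylate-binding proteins (GBP) and immunity-related GTPases (IRG) are IFN-γ-induced enzymes that attack membranes around intracellular microbes. Of 20 listed, 12 were measured and 6 kept, 3 of them higher and 1 lower, against 11.2% and 38.7% of kept genes, with a median difference of 1.06. Over all 12 measured the median was 0.50, and over the 7 with a mean of 10 or more on the other 6 arrays it was 0.85, with 3 higher and 0 lower. 3 of the 6 were kept through the diabetogenic array alone and so had to be higher there.

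Gbp6 stood at 24.5 on the diabetogenic array and 3.33 on the protected array, a difference of 2.31. Iigp1 stood at 15.0 and 1.97 (2.10). Gbp2 stood at 55.6 and 21.9 (1.27), and it reached the minimum on both. These 3 lay 2.60, 3.33 and 2.85 above genes of like level. Gbp6 and Iigp1 were kept through the diabetogenic array alone, so part of their distance was set by the minimum. Their second probe sets gave 0.43 for Gbp6, −0.51 for Iigp1 and 1.81 for Gbp2, so only that of Gbp2 showed the same size. Igtp stood at 34.8 and 18.5 (0.85), Gbp7 at 13.4 and 9.40 (0.43) and Irgq, an atypical member of the family, at 4.26 and 12.2 (−1.19). Gbp3, Irgm1 and Irgm2 were under 3 on both arrays.

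The upstream windows of Gbp2 and Igtp are shown as examples that carry a match, and the window of Irgq held none. Of the 6 kept members 5 lay above genes of like level, 3 of them kept through the diabetogenic array alone. In RefSeq's mouse assembly GRCm38.p6 a window of 300 bases around the gene start was found for 4 of the 6 kept GTPases. The interferon-stimulated response element type, GAAA and again GAAA with any 2 bases between, was searched on both strands and lay in 3 of the 4 windows (Gbp2, Gbp7 and Igtp), against 3.44% of all 32851 windows. TTCNNNGAA, the STAT site type, which reads alike on both strands, lay in 2 (Gbp7 and Igtp), against 8.30% of windows. The wider STAT6 type, TTC and GAA with any 4 bases between, lay in 0 of the 4, against 6.95%. Matches are letters in a window, not shown binding sites. Capitals mark the matches, 59 bases before the start in Gbp2 (the element on the other strand) and, in Igtp, 45 and 34 bases before it for the STAT type and the response element type. The Gbp2 window is chr3:142620413-142620712 on the plus strand and the Igtp window chr11:58199306-58199605 on the plus strand.
Gbp2: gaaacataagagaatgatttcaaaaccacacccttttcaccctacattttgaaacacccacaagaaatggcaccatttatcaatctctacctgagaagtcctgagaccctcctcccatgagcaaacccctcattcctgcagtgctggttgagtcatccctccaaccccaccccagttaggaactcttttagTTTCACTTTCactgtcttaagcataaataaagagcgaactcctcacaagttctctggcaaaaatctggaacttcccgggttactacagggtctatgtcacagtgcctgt
Igtp: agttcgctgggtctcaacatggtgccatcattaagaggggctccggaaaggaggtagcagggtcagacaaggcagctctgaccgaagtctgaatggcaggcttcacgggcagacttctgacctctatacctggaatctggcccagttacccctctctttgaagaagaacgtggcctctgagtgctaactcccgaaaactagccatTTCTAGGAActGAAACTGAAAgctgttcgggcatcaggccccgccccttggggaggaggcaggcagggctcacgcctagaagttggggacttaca

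The day 4 difference of the GTPases lay between those of day 3 and day 8. The 6 kept members had a median difference of 2.86 on day 3, 1.06 on day 4 and −0.10 on day 8. On the diabetogenic arrays Igtp stood at 250 on day 3 and 34.8 on day 4, and Gbp2 at 216 and 55.6, with 31.4 and 29.3 on the protected array of day 3. Day 4 values of Igtp and Gbp2 in the protected arm, 18.5 and 21.9, were above the 10.8 and 5.17 of untreated islets. The diabetogenic array of day 4 was dim as a whole, with a 99th percentile of 25.6 against 89.5 on day 3. Levels of day 4 set against day 3 or untreated islets also cross the split in spiked controls. The part of either in these changes was not tested.

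Cxcl9, a ligand of CXCR3 that attracts activated T cells, stood at 31.9 and 3.5 (2.62, or 3.01 above like level), though its second probe set gave 0.01. It was the only kept gene of 4 measured for CXCR3 and its ligands, through the diabetogenic array alone. Cxcl10 stood at 2.24 and 2.17. Il18bp, the secreted inhibitor of interleukin-18, stood at 30.7 and 6.71 (1.91). Ifng itself hardly differed, at 17.4 and 15.9 (0.12), and the transcription factor gene Irf1 stood at 27.1 and 16.1 (0.69).

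Of 17 measured genes of IFN-γ signalling, 7 were kept, 1 higher and 3 lower, counts near the 11.2% and 38.7% of all kept genes. Their median of −0.36 turned to 0.73 against like level, and to 0.32 and 0.79 under median centring and quantile normalization. Stat3, a STAT used by interleukin-6 and interleukin-10, stood at 10.4 and 4.02 (1.05, other probe sets −1.02 to 0.20). Socs3, a feedback inhibitor, stood at 15.7 and 62.3 (−1.86). Irf9 and Jak2 differed by −1.22 and −1.14, and Nlrc5, the activator of MHC class I genes, by −0.36. Of the type I interferon-stimulated genes 5 of 21 measured were kept, 0 higher and 2 lower, against 38.7% of kept genes lower. Their median of −0.90 turned to 0.09 against like level, and was 0.03 over all 21 measured and −0.78 over the 8 that passed on the other 6 arrays. Rsad2, an antiviral enzyme, stood at 16.9 and 7.99 (0.92), and Ifi27l2a at 17.7 and 70.0 (−1.87).

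No kept gene of antigen presentation was 2-fold or more higher in diabetogenic islets. For MHC class I and the immunoproteasome 7 of 14 measured were kept, 0 higher and 4 lower, against 38.7% of kept genes lower. The median was −1.05, or −0.22 against like level and −0.40 over all 14 measured. Psmb9, an immunoproteasome subunit, stood at 10.7 and 8.98 (0.21), B2m, the class I light chain, at 9.67 and 15.8 (−0.61), and Calr, a chaperone of class I loading, at 4.25 and 26.3 (−2.18). For MHC class II 6 of 10 were kept, 0 higher and 5 lower (median −1.99, or −0.80 against like level). Over all 10 measured the median was −1.11, and 6 of the 8 that passed on the other 6 arrays were lower, with a median of −1.48. H2-Aa, the class II alpha chain, stood at 160 and 1053 (−2.70, or −0.22 after quantile normalization), with its other probe sets between −2.39 and 0.65. Ifi30, a lysosomal thiol reductase, stood at 11.3 and 124 (−3.24), and Ctss, the protease that trims the class II chaperone, at 14.3 and 73.1 (−2.21).

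Alternative activation genes were lower in diabetogenic islets. Of 16 measured 8 were kept, 0 higher and 6 lower, with a median of −2.06, or −1.52 against like level. 5 of the 8 were kept through the protected array alone and so had to be lower. Over all 16 measured the median was −0.69. Among the 7 that passed on the other 6 arrays 6 were lower, with a median of −2.75. Chil3, a chitinase-like lectin, stood at 4.01 and 352 (−5.88, or −4.91 with a pseudocount of 8). Arg1, the arginine-degrading enzyme, stood at 6.05 and 65.3 (−3.06), Retnla, a resistin-like secreted protein, at 3.09 and 32.2 (−2.75), and Cd163, the haemoglobin scavenger receptor, at 3.47 and 35.0 (−2.76). These 4 were near the floor in diabetogenic and well measured in protected islets. They lay 2.22 to 4.11 below genes of like level. The 5 defining macrophage markers summed to 146 and 1416, most of it Csf1r (114 and 1386), with the others between 2.64 and 12.8 on either array, and their part in this result was not tested.

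Not every member was apart. Tgm2, a protein crosslinking enzyme, stood at 1151 and 2982 (−1.37), which is 0.40 above like level, with other probe sets from −2.36 to 0.86. The mannose receptor gene Mrc1 stood at 11.7 and 13.7 (−0.20), and Pdcd1lg2, the ligand PD-L2, at 22.3 and 36.1 (−0.65). Il4ra, the receptor chain shared by interleukin-4 and interleukin-13, stood at 5.65 and 15.1 (−1.16).

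Windows were found for 6 of the 8 kept members. Those of Chil3 and Retnla are shown as examples that lay far below their level and carry a match. The windows of Cd163, Il4ra and Mrc1 held no match, though Cd163 differed about as much as Retnla. TTCNNNGAA lay in 1 of the 6 (Chil3), the wider STAT6 type in 2 (Pdcd1lg2 and Retnla) and the response element type in 0. Among all 32851 windows the shares were 8.30%, 6.95% and 3.44%. Capitals mark the STAT type match 172 bases before the start in Chil3 and the STAT6 type match 145 bases before it in Retnla. The Chil3 window is chr3:106167515-106167814 on the minus strand and the Retnla window chr16:48842359-48842658 on the plus strand.
Chil3: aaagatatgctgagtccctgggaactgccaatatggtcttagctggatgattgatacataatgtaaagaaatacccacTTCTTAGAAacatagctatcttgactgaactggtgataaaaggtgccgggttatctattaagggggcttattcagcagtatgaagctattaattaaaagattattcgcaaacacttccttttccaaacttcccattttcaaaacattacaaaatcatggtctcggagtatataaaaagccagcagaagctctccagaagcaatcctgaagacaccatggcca
Retnla: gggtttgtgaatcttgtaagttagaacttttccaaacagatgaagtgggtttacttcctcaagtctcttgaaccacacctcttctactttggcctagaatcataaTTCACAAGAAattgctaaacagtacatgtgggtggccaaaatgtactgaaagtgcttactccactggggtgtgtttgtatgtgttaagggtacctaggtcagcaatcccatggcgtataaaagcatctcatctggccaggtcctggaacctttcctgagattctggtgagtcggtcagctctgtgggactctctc

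The same direction was seen in the eotaxin Ccl24, which attracts eosinophils and is made by alternatively activated macrophages, at 10.8 and 476 (−5.23, or −4.69 with a pseudocount of 8), and in Rnase2a, a ribonuclease of the eosinophil-associated family, at 4.17 and 382 (−5.96, or −5.00 with a pseudocount of 8). The diabetogenic values of Rnase2a and Chil3 lie near the array median of 3.46, so the size of these differences is set in part by the pseudocount. Prg2, Epx, Siglecf and Ccr3, which define eosinophils, were under 10 on all 8 arrays, with summed intensities of 13.8 and 13.1 on day 4, and could show no change. Ccl11, the other eotaxin measured well, stood at 9.19 and 16.0 (−0.69), and Prg3 at 10.1 and 2.10 (1.56). Of 10 measured in the list 4 were kept, 1 higher and 2 lower.

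Among CC chemokines 5 of 19 measured were kept, 0 higher and 4 lower (median −2.62, or −1.10 against like level). 2 of the 5 were kept through the protected array alone and so had to be lower. Over all 19 measured the median was −0.13, and 4 of the 8 that passed on the other 6 arrays were lower, with a median of −1.73. Ccl17, which attracts Ccr4-bearing T cells, stood at 328 and 2417 (−2.87). Ccl6, Ccl8 and Ccl9, attractants of myeloid cells, differed by −2.62, −2.48 and −4.15, the second probe set of Ccl9 giving 0.35. Ccl5, an attractant of effector T cells, stood at 13.02 and 11.2 (0.19), and Ccl22 at 2.95 and 3.26. Of the other CXC chemokines 3 of 14 were kept, 0 of them past 2-fold.

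Macrophage markers lay mostly lower in diabetogenic islets on the deposited scale. In bulk tissue fewer cells of a type cannot be told apart from less RNA per cell. Of 25 measured 11 were kept, 0 higher and 9 lower, against 38.7% of kept genes lower, with a median of −2.78, or −1.31 against like level. Kept genes with a mean level of 6 to 8 had a median of −2.57, so the bright markers lay less far below genes of their own range. After quantile normalization 6 were lower, with a median of −0.79. By the filter on the other 6 arrays 10 of 16 were lower, with a median of −1.89, and over all 25 measured the median was −0.42. Csf1r, the receptor for the macrophage growth factor, stood at 114 and 1386 (−3.58, or −1.00 after quantile normalization), Lgals3, a galactose-binding lectin, at 19.4 and 268 (−3.65) and Tyrobp, an adaptor of activating receptors, at 50.4 and 358 (−2.78). Adgre1, which encodes F4/80, stood at 10.6 and 11.5 (−0.10), Mpeg1 at 12.8 and 9.91 (0.31) and Cd68 at 5.21 and 5.92. The markers did not move alike.

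Of 11 Fc receptor and C-type lectin receptor genes 5 were kept, 0 higher and 3 lower (median −1.75, −0.42 against like level), led by the IgG receptor gene Fcgr3 at 2.11 and 19.6 (−2.40). The dendritic cell marker Itgax stood at 1.16 and 9.53, under the minimum, and 1 of 13 dendritic genes was kept (Zbtb46, 0.07). Of 10 neutrophil genes 2 were kept, S100a8 at 17.9 and 21.3 (−0.23) and Ltf at 11.2 and 3.38 (1.29).

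T cell genes were dim on both arrays. Of 16 measured 4 were kept, with 0 higher and 1 lower. Cd3e, a chain of the T cell receptor complex, stood at 3.44 and 23.7 (−2.24), whereas Cd3d and Cd3g were under 5 on both and Cd4 stood at 9.66 and 1.77. Summed over 6 markers the T cell signal was 28.0 and 48.6. Zap70, a receptor-proximal kinase, stood at 24.3 and 29.4 (−0.26). Of 27 effector and fate genes the only kept one was Il13, an inducer of alternative activation, at 16.3 and 5.07 (1.37), and Il4 stood at 2.91 and 9.59. None of the 10 B cell and NK cell genes was kept.

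Of 17 costimulatory and checkpoint genes 5 were kept, 1 higher (Il18bp) and 1 lower. Cd40, which licenses antigen-presenting cells, stood at 15.5 and 42.0 (−1.33), and Cd274, the ligand PD-L1, at 4.54 and 2.96. Of 17 cytokine injury genes 4 were kept, with the death-promoting Bid at 11.4 and 2.77 (1.49) and the mitochondrial dismutase gene Sod2 at 3.87 and 15.3 (−1.56), while Nos2, the inducible nitric oxide synthase, was under 2 on both arrays. In the interleukin-1 family 3 of 13 were kept, and Il1b stood at 9.59 and 19.7 (−0.90). In the complement and acute phase list 3 of 16 were kept, with the complement inhibitor gene Serping1 level at 78.6 and 77.2 and Cp, ceruloplasmin, at 5.86 and 40.1 (−2.42).

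**Figure D3:**
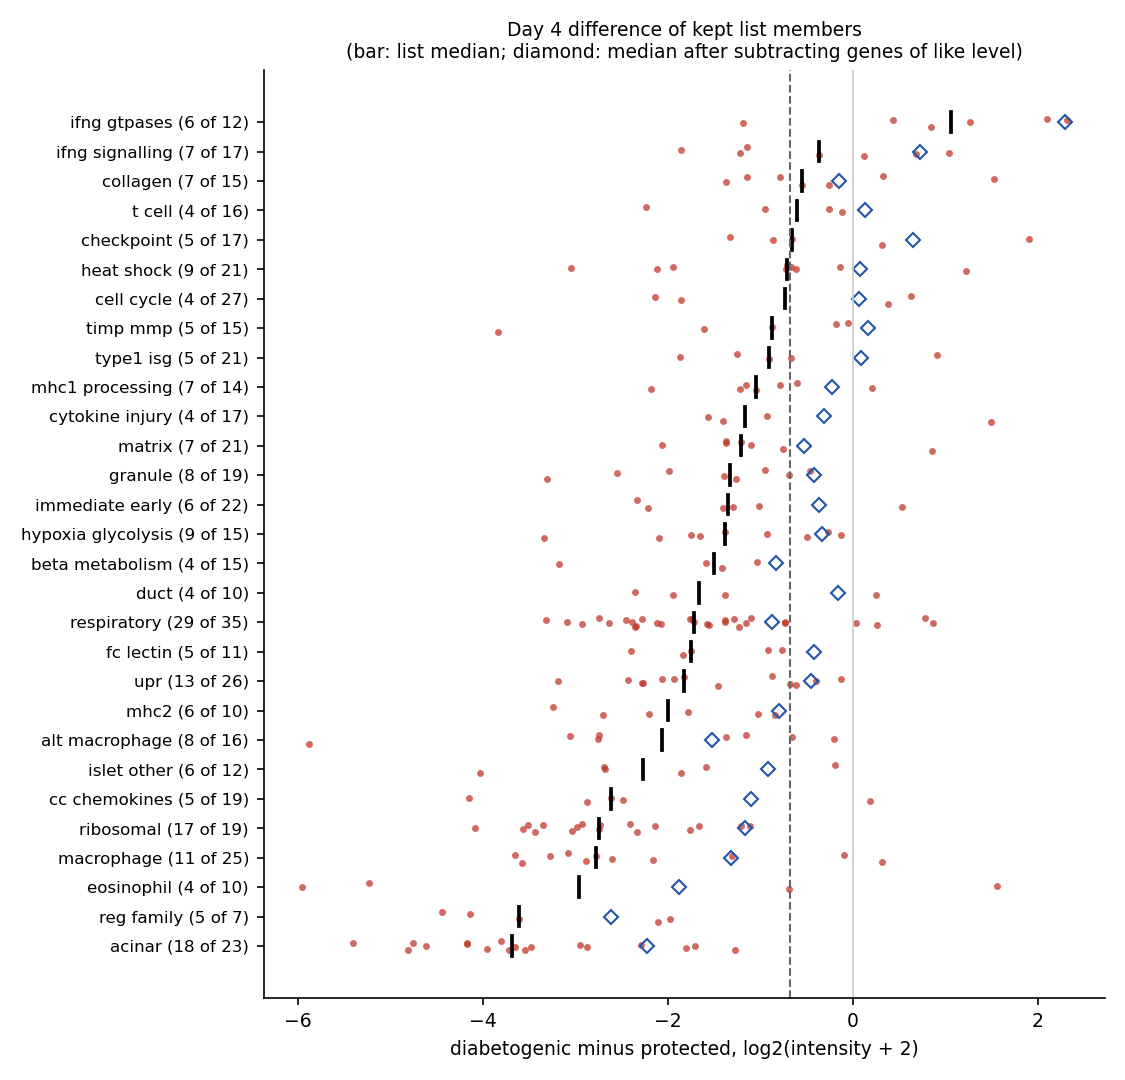
Difference of kept list members on the log2(intensity + 2) scale, with each list's kept and measured numbers. Points are genes, bars the list medians, diamonds the medians after subtracting genes of like level, and the dashed line the median of all kept genes, −0.68. On the deposited scale the GTPases are the only list of those drawn with a median above 0 (1.06), and the acinar and Reg lists lie near each other, at −3.68 and −3.61.

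Acinar genes, which encode digestive enzymes and their partners, were lower in diabetogenic islets. Of 30 listed, 23 were measured and 18 kept, 7 of them through the protected array alone. All 18 were lower, against 38.7% of kept genes, with a median of −3.68, or −2.22 against like level. The median over the 23 measured was −3.48, and among 19 that passed on the other 6 arrays 18 were lower. Cela1, an elastase, stood at 5.08 and 298 (−5.41), Cela3b at 94.7 and 2709.9 (−4.81), Prss2, a trypsinogen, at 42.0 and 1182 (−4.75) and Ctrl, a chymotrypsin-like protease, at 43.7 and 1122 (−4.62). The 3 other probe sets of Cela3b gave −4.98 to −3.01 and the 3 of Prss2 −5.11 to −2.98. Dmbt1, a secreted scavenger protein, stood at 2.37 and 76.8 (−4.17). The smallest differences were those of Ctrc, a chymotrypsin, at 17.0 and 44.0 (−1.28) and the lipase gene Pnliprp2 (−1.71).

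The protected array also stood apart from the other arrays in these genes. The 23 measured acinar genes summed to 393 on the diabetogenic and 7553 on the protected array, against 3744 in untreated islets, 2773 and 2312 on day 3, and 1456 in protected islets of day 5. By day 8 the sums were 415 for diabetogenic and 2333 for protected islets. The day 4 diabetogenic sum was thus close to that of day 8, and the day 4 protected sum was above those of the other 7 arrays. How much exocrine tissue the laser took with the islets was not measured, and its part in these differences was not tested.

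The Reg lectins, secreted by acinar cells on injury, were lower as well. Of 7 measured 5 were kept, each through the protected array alone, so all 5 had to be lower (median −3.61, or −2.62 against like level). Over all 7 the median was −2.11, and the 3 that passed on the other 6 arrays were all lower, with a median of −4.14. Reg3b stood at 9.85 and 257 (−4.45, second probe set −5.76), Reg1 at 2.85 and 83.4 (−4.14) and Reg2 at 5.14 and 85.4 (−3.61). In untreated islets Reg3b stood at 13.01 and Reg2 at 21.2, while the 7 measured Reg genes summed to 141. On day 4 the 7 summed to 32.4 and 478, and the untreated array lies across the split in spiked controls. Of 10 duct cell genes 4 were kept and 3 lower, led by the keratin gene Krt18 at 32.7 and 176 (−2.36), and Epcam, an epithelial adhesion molecule, stood at 26.4 and 21.9 (0.25).

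Several endocrine genes other than insulin were lower too. Ins2 stood at 3700.2 and 5532 (−0.58), 1.19 above genes of like level. The 24 kept genes with a mean above 8 had quartiles of −3.04 and 0.84, so Ins2 lay within the spread of its own range. Iapp, the co-secreted peptide amylin, stood at 99.7 and 1143 (−3.49), with other probe sets from −4.03 to −1.33. Of 12 alpha, delta and PP cell genes 6 were kept, 0 higher and 5 lower (median −2.27, or −0.91 against like level). After quantile normalization 3 were lower, with a median of −0.76, and over all 12 measured the median was −0.54. Gcg, glucagon, stood at 52.8 and 895 (−4.03, or −1.30 after quantile normalization), Pyy, peptide YY, at 31.3 and 212 (−2.68) and Sst, somatostatin, at 2.03 and 10.1 (−1.59).

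Secretory granule genes gave 8 of 19 kept, 0 higher and 5 lower (median −1.33, or −0.42 against like level). 3 of the 8 were kept through the protected array alone, and the median over all 19 measured was −0.54. Chgb, a granule matrix protein, stood at 22.0 and 235 (−3.30), and Scg5, a chaperone of a prohormone convertase, at 2.5 and 24.3 (−2.55). For beta cell metabolism 4 of 15 were kept, each through the protected array alone, so all 4 had to be lower. Over all 15 the median was −0.82, and 7 of the 12 that passed on the other 6 arrays were lower, with a median of −1.01. The largest of the 4 differences was that of Ero1b, the islet disulfide oxidase, at 6.79 and 77.5 (−3.18, other probe sets −0.39 to 0.54). Both arms of day 4 stood below untreated islets in these classes. The 19 granule genes summed to 2995 in untreated islets and to 138 and 499.7 on day 4. The 12 beta cell transcription factor genes summed to 462 in untreated islets and to 43.9 and 51.3 on the day 4 arrays, and only Foxa2 was kept (−0.50). Pdx1 stood at 77.5 in untreated islets and at 3.01 and 2.35 on day 4, and the glucose transporter gene Slc2a2 at 161 and then 3.79 and 8.19. At those levels no difference between the arms could be measured. The untreated array lies across the split in spiked controls, and its part in this was not tested.

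Housekeeping groups were lower too. Of 19 measured cytosolic ribosomal protein genes 17 were kept, all 17 lower (median −2.75, or −1.16 against like level), from Rplp0 at 19.4 and 44.2 (−1.11) to Rps18 at 48.5 and 858 (−4.09). 6 of the 17 were kept through the protected array alone, and the median over all 19 was −2.73. Of 35 nuclear genes of the respiratory chain 29 were kept, 0 higher and 23 lower (median −1.71, or −0.87 against like level). 15 of the 29 were kept through the protected array alone, so their differences had to be below 0. The median was −1.46 over all 35 measured. Of the 31 that passed on the other 6 arrays 22 were lower, with a median of −1.58. Ndufv2, a complex I subunit, stood at 2.35 and 41.2 (−3.31) and Ndufb8 at 25.1 and 229 (−3.09), while Uqcrc1, of complex III, was level at 17.7 and 17.2. Actb stood at 36.3 and 259 (−2.77, or −0.59 after quantile normalization) and Gapdh at 29.9 and 74.5 (−1.26), and the difference of Gapdh turned to 0.22 after quantile normalization and 0.51 against like level. The medians of the ribosomal and respiratory lists lay below that of all kept genes, before and after the comparison with like level. The ribosomal median of −2.75 was, however, close to the −2.57 of all kept genes with a mean level of 6 to 8. For bright members the block of like-level neighbours reaches down to dimmer genes.

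Genes of cell stress were not higher in diabetogenic islets as groups. Of 21 heat shock and oxidative stress genes 9 were kept, 1 higher and 3 lower (median −0.71, or 0.08 against like level). Those counts are near the 11.2% and 38.7% of all kept genes. Slc7a11, the cystine importer, stood at 14.7 and 5.16 (1.22, second probe set −0.48), and Hspa8, the constitutive chaperone, at 76.1 and 644 (−3.05, or −0.28 after quantile normalization). Of 26 unfolded protein response genes 13 were kept, 0 higher and 8 lower (median −1.82, or −0.45 against like level). 9 of the 13 were kept through the protected array alone, so their differences had to be below 0. The median was −0.65 over all 26 measured. Of the 17 that passed on the other 6 arrays 9 were lower, with a median of −1.23. Xbp1, a transcription factor of that response, stood at 19.98 and 199 (−3.19), Hyou1, a chaperone of the endoplasmic reticulum, at 6.47 and 43.6 (−2.43) and Ddit3, which encodes CHOP, at 6.63 and 11.2 (−0.61).

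Of 22 immediate-early and stress-induced genes 6 were kept, 0 higher and 5 lower (median −1.35, or −0.37 against like level). 2 of the 6 were kept through the protected array alone, and the median over all 22 measured was −0.32. Jund stood at 42.2 and 221 (−2.33), while Fos was under 3 on both arrays and Atf3 at 3.27 and 7.96. Of 15 hypoxia and glycolysis genes 9 were kept, 0 higher and 5 lower (median −1.38, or −0.33 against like level). 5 of the 9 were kept through the protected array alone, so their differences had to be below 0. The median was −0.49 over all 15 measured. Of the 8 that passed on the other 6 arrays 4 were lower, with a median of −1.29. Pgk1, a glycolytic kinase, stood at 49.0 and 512 (−3.33), and Slc2a1, the ubiquitous glucose transporter, at 28.2 and 30.9 (−0.12).

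Stromal genes were mixed. Of 21 matrix genes 7 were kept, 4 of them through the protected array alone, with 0 higher and 5 lower (median −1.21). Over all 21 measured the median was −0.06. Fn1, fibronectin, stood at 5.80 and 30.6 (−2.06), though its second probe set gave 0.70. Timp1, an inhibitor of matrix metalloproteinases, stood at 5.18 and 100 (−3.83), 2.71 below genes of like level, and was 1 of 2 lower among 5 kept of 15 in its list. Of 15 collagen genes 7 were kept, 1 higher and 2 lower, with Col3a1, a fibrillar collagen, at 33.6 and 10.3 (1.53, second probe set −0.65). Vim, vimentin, was bright on both arrays at 675 and 1139 (−0.75). Of 27 cell cycle genes 4 were kept, 0 higher and 2 lower, with Pcna, the polymerase clamp, at 2.12 and 12.9 (−1.86). Endothelial, red cell and combined fat and liver lists had 1 kept gene each, Plvap (−1.73), Hba-a2 (−1.27) and Ttr (−2.69), the last of which alpha cells also express.

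Outside the lists, the largest lower differences included Slco1a6, an organic anion transporter, at 5.00 and 350.0 (−5.65), Fabp5, a fatty acid binding protein of macrophages and epithelia, at 21.7 and 529 (−4.48, second probe set −5.19), Lzts2 at 3.89 and 124 (−4.42) and Fau, which encodes a ribosomal protein fused to a ubiquitin-like domain, at 1.83 and 68.0 (−4.19). Slco1a6 stood at 62.5 to 103 on the untreated and day 3 arrays, below its protected and above its diabetogenic value of day 4. Ms4a6d, a macrophage membrane protein, and Peg3, an imprinted zinc finger gene, were among the 12 furthest below their level, at −3.73 and −3.45, with other probe sets near 0 (0.12 to 0.45 and −0.25 to 0.54).

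The genes highest in diabetogenic islets mostly rested on 1 probe set. Of the 12 largest, 11 have other probe sets, and in 10 of these none was 2-fold or more higher. Mtmr9, a phosphatase-like protein, stood at 170 and 2.14 (5.38), and its 2 other probe sets gave −1.19 and −0.44. Ccdc93 stood at 58.7 and 1.23 (4.23, the others −1.11 to 0.02), Bsdc1 at 384 and 35.3 (3.37, the other −1.04) and Arid3b, a DNA-binding protein, at 28.5 and 1 (3.34, the other −0.04). The other 8 of the 12 largest were 4930419G24Rik, Phka1, Rab3il1, Car7, Pank2, Srd5a3, Cipc and Poc1b, with differences from 2.74 to 3.34. Prrg4 and Hemgn, with Sf3b4, were added by the comparison with like level, at 2.74 and 2.59.

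Of the 25 genes at 100 or more on the diabetogenic array 8 were higher, 12 lower and 5 within 2-fold. The 8, chosen for description after their values were seen except Mtmr9, Bsdc1, Car7 and Sf3b4, were Mtmr9, Pik3cd, Bsdc1, Rusc1, Rassf1, Sf3b4, Slc5a9 and Car7. Car7, a carbonic anhydrase, stood at 1291 and 164 (2.96), Slc5a9, a sugar transporter, at 1141 and 277 (2.03), Sf3b4, a splicing factor, at 1064 and 202 (2.39) and Rassf1, a tumour suppressor, at 997 and 234 (2.08). The 8 genes had 21 other probe sets, of which 1 was 2-fold or more higher and the brightest stood at 19.0 on the diabetogenic array. The names of 6 of the 8 carry a suffix (_s_at, _x_at or _a_at) that marks probe sets matching several transcripts. Car7, Slc5a9, Sf3b4 and Rassf1 stood between 12.5 and 38.2 on the untreated and day 3 arrays and between 65.2 and 370.2 on those of day 5 and day 8. A control probe set for the mouse B1 repeat moved the same way between days, at 158 to 224 on the untreated and day 3 arrays and 1046 to 2358 on the later 5, and stood at 2203 and 2358 on the day 4 arrays. Its part in these genes was not tested.

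**Figure D4:**
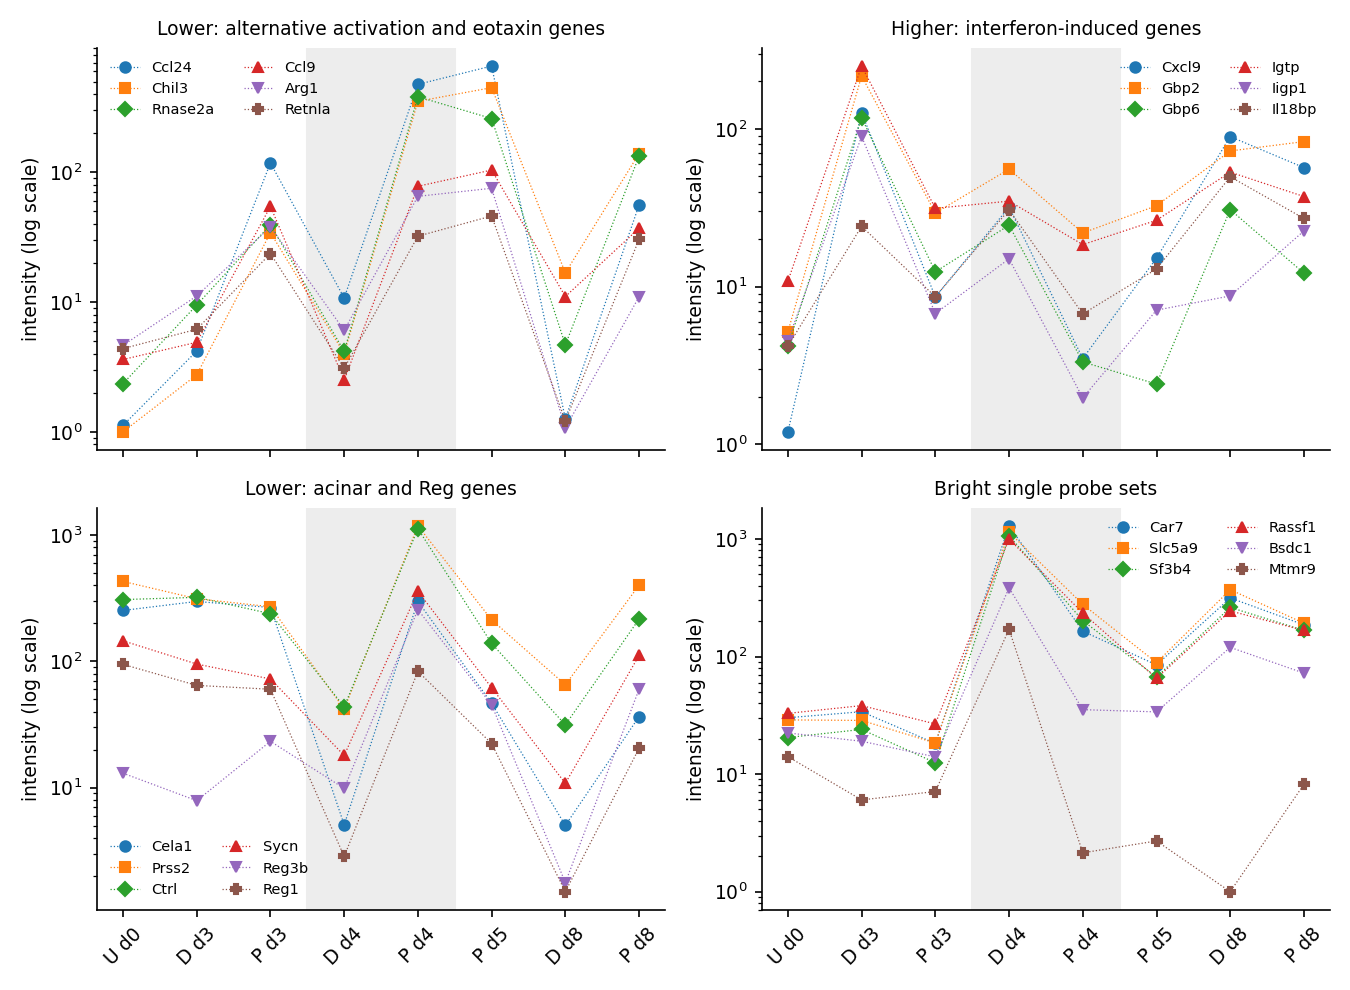
Intensity of named genes on all 8 arrays, on a log scale, with the day 4 arrays shaded. U is untreated, D diabetogenic and P protected islets, d the day, and dotted lines join arrays of different mice in order of day and arm. Ccl24, Chil3 and Rnase2a stand at 476, 352 and 382 on the protected and at 10.8, 4.01 and 4.17 on the diabetogenic array, and Car7, Slc5a9, Sf3b4 and Rassf1 are bright on day 4 at 997 to 1291 in diabetogenic islets.

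Most of the 431 higher genes were dim elsewhere. Their median intensity was 13.8 on the diabetogenic and 3.92 on the protected array, against 3.55 in untreated islets, and 377 of them (87.5%) stood under 10 on the untreated and both day 3 arrays. The 1488 lower genes had medians of 5.32 and 20.4, against 26.8 in untreated islets, and 306 (20.6%) stood under 10 on those 3 arrays. Of 44 other probe sets of the higher genes that reached the minimum, 16 were higher and 7 lower. Of 416 for the lower genes, 241 were lower and 29 higher.

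The other matched days used other mice and arrays. Among the genes kept on day 4, 45 (1.17%) were higher and 44 (1.14%) lower on day 3, and 193 (5.02%) higher and 794 (20.6%) lower on day 8. Of the 431 genes higher on day 4, 13 (3.02%) were higher and 0 lower on day 3, and 46 (10.7%) were higher and 53 (12.3%) lower on day 8. Of the 1488 lower genes, 31 (2.08%) were lower and 5 higher on day 3, and 385 (25.9%) were lower and 36 (2.42%) higher on day 8. Gbp6 was the 1 gene higher on all 3 days. The 20 lower on all 3 were Adh1, Arg1, Ccl17, Ccl24, Ccl6, Ccl9, Cd163, Chil3, Dab2, Flrt3, Fn1, Mcoln1, Olfm1, Psmd13, Reg3b, Retnla, Rnase2a, Srgn, Tgm2 and Timp1, named for the 3-day count after their values were seen. Acinar genes had median differences of 0.21 on day 3 and −2.52 on day 8, ribosomal protein genes −0.33 and −0.16, and macrophage markers −0.22 and 0.21. Other lists below 0 on day 8 included the Reg lectins (median −2.42) and the CC chemokines (−1.56).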

How the data were processed

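The deposited table holds probe set intensities on a linear scale, as the authors processed them. Their summarisation and scaling are not given in the sources used here. Of 45101 probe sets, 34958 carry 1 symbol in the platform annotation of 2016, 932 several and 9211 none, and only the first kind was used. Ins1 and Mafa, which had no such probe set, were not analysed here. Differences were taken as log2(intensity + 2), with Python 3.11.15, pandas 2.3.3 and numpy 2.4.6, for genes at 10 or more on either day 4 array. The subtraction of genes of like level was tested on simulated data, and the other steps were not. The 42 gene lists hold 744 genes, of which 648 were measured and 245 kept, and the members, lists and comparison were chosen with earlier results of these data known. Named genes are the 12 largest differences in each direction, before and after subtracting genes of like level, the largest 2 to 4 kept members of each list described, and a fixed set of interferon, macrophage, islet, acinar and stress genes. Other genes named are further list members given as examples. Promoter windows came from RefSeq (GRCm38.p6). The number of arrays limits the precision. Alternatives covered the pseudocount, intensity minimum, choice of probe set, normalization and fold limit.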

Additional observations from a re-analysis of the deposited data

Results flagged for a closer look

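For 7 named genes the day 4 difference was 2-fold or more and the difference on another day was 2-fold or more the other way. Each day has 1 array per arm, so the differences between days were not tested. Cipc, a circadian clock inhibitor, was higher on day 4 (2.86) and stood at −1.35 on day 8. Iigp1, an interferon-induced GTPase, was higher on day 4 (2.10) and stood at −1.19 on day 8. Stat3 stood at 1.05 on day 4 and −2.23 on day 8, and the collagen gene Col3a1 at 1.53 and −1.37. The interferon-induced gene Ifi27l2a was lower on day 4 (−1.87) and stood at 1.16 on day 3, as did the immunoproteasome gene Psmb10 (−1.22 and 1.3) and Cd40 (−1.33 and 1.5).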

How the results depend on the processing

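The counts of higher and lower genes, 431 and 1488, were 159 and 831 with a pseudocount of 8, 93 and 762 for genes at 20 or more on either array, 1125 and 2476 with no filter, 194 and 695 with the mean of all probe sets of a gene, and 81 and 436 at 4-fold. They were 780 and 477 against genes of like level, a measure that the minimum of 10 shapes at the dim end. Higher genes numbered 75 with the filter on the other 6 arrays and 1180 after quantile normalization, where lower genes (1494 and 1576) stayed within 1.5 times. Chosen after seeing the data, a minimum of 10 on both arrays gave 32 and 397, and setting the median difference to 0 gave 878 and 672. A pseudocount of 1, equal array medians, and, added later, leaving out _s_at and _x_at probe sets kept both counts within 1.5 times. The median of the duct list turned to 0.031 with no filter, that of the complement and acute phase list to 0.15 with no filter and 0.64 after quantile normalization, and Gapdh to 0.22 after quantile normalization and 0.51 against like level; the cause was not tested. Quantile normalization also shrank many bright genes: H2-Aa went from −2.70 to −0.22, Hspa8 from −3.05 to −0.28, Actb from −2.77 to −0.59, Csf1r from −3.58 to −1.00 and the macrophage median from −2.78 to −0.79. No paired analysis was possible because each arm has 1 array on day 4, and for the same reason no array could be left out. The dim diabetogenic array limits what can be shown: genes under 10 on both arrays, such as Pdx1 and Nos2, give no measurable difference.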
